A study of Mus musculus with 4 samples.

Results

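Pericytes are the mural cells that wrap the capillaries and small venules of adipose tissue. In 4 single-cell libraries of mouse subcutaneous fat, pericyte barcodes were chosen by UMI counts (unique molecular identifiers, each standing for 1 captured transcript molecule): a barcode was taken when the 5 genes Rgs5, Higd1b, Kcnj8, Abcc9 and Notch3 summed to at least 6 UMIs and Myh11, the smooth muscle myosin heavy chain, gave at most 1. Barcodes with any UMI of the leukocyte gene Ptprc, or with more than 1 of the endothelial genes Cdh5 and Pecam1, were left out. The rule found 188 barcodes among the 22750 that held at least 500 UMIs and 300 genes and at most 10% mitochondrial UMIs. All cells came from the stromal vascular fraction (the cells left after adipocytes float off) of pooled subcutaneous depots of female mice, with lymph nodes removed. Each group was a single library: Cth+/+ mice on the control diet, Cth+/+ mice on the cystine-free diet, Cth-/- mice on the control diet and Cth-/- mice on the cystine-free diet, each after 4 days. Cth encodes cystathionine gamma-lyase, which makes cysteine from cystathionine, so Cth-/- mice on the cystine-free diet lack both the dietary and this inner source. The mutation was not stated to be limited to any cell type, the number of mice behind each library was not given, and no group had a second library.

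With 1 library per group no difference between groups could be tested. The intervals given here are exact 95% intervals (Clopper-Pearson for shares, Poisson for levels, conditional binomial for ratios) and cover counting error only, not the spread between mice. Cth itself was nearly unreadable, with 8 and 9 UMIs over the kept barcodes of the Cth+/+ control and cystine-free libraries, 0 and 0 in the Cth-/- libraries, and 0 in the pericyte barcodes of any library. The kept barcodes numbered 6425, 6383, 5812 and 4130 in the order in which the groups are listed above, Cth+/+ before Cth-/- and in each genotype the control diet before the cystine-free diet, which is the order of every series of 4 values in the text. Their median depth was 2744, 3782, 3567.5 and 2684.5 UMIs. Each pair of libraries shared between 40 and 69 barcode sequences, and 0 of these were pericyte barcodes in both.

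Pericytes share the basement membrane of the endothelium and are recruited to it by endothelial platelet-derived growth factor acting on their receptor Pdgfrb. They contract or relax with the local supply of blood, and an ATP-sensitive potassium channel, built from the pore Kcnj8 (Kir6.1) and the sulphonylurea receptor Abcc9 (SUR2), links their membrane potential to metabolism. In fat they also lie beside the adipocyte progenitors, with which they share Pdgfrb.

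The 5 rule genes included members of gene pairs that lie next to each other in the mouse genome. Rgs5 (chr1:169655501-169695813, plus strand) and Rgs4 (chr1:169741477-169747642, minus strand), both regulators that shorten G-protein signals, lie with their 3-prime ends toward each other, 45663 bases apart with 0 coding genes between them. Kcnj8 (chr6:142564837-142571614) and Abcc9 (chr6:142587862-142702315), the pore and the regulatory subunit of one channel, both lie on the minus strand, 16247 bases apart with 0 coding genes between. These positions are on GRCm38 (mm10) in the GENCODE annotation. The 250 bases upstream of the annotated start of 4 genes are printed from RefSeq (GRCm38.p6), because Rgs5, Kcnj8 and Notch3 chose the barcodes, Rgs4 is the neighbour of Rgs5, and Kcnj8 differed most of the rule genes between the Cth+/+ libraries. Capitals mark a TATAAA box or the letters ACGTG, the core of the hypoxia response element, written CACGT when it lies on the other strand.
Rgs5, chr1:169655251-169655500, plus strand: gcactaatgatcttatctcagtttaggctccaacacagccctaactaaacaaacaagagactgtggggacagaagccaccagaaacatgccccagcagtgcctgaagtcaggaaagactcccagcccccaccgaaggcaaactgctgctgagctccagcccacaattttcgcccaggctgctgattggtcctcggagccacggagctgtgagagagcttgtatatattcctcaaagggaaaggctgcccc
Rgs4, chr1:169747643-169747892, minus strand: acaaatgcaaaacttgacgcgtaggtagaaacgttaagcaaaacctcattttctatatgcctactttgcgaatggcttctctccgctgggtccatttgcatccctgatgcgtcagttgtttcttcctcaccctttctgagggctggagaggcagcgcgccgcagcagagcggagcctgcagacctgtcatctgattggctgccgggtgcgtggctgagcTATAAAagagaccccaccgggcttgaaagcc
Kcnj8, chr6:142571615-142571864, minus strand: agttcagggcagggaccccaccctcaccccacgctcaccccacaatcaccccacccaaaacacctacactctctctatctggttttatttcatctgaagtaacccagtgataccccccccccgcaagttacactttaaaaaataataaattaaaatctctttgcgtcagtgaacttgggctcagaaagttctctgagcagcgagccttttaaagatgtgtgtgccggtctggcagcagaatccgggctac
Notch3, chr17:32166891-32167140, minus strand: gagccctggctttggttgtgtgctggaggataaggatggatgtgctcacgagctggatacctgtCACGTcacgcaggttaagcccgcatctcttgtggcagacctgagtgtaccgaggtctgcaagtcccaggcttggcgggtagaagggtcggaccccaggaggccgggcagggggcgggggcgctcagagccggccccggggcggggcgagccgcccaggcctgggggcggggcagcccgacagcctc
On both strands of these 4 windows, TATAAA was found in that of Rgs4 alone, ACGTG in that of Notch3 alone, and GTGGGAA, the core of the site of the Notch effector Rbpj, and the CArG box of serum response factor in none. Of 32851 promoter windows of the same length, 12.4% held TATAAA, 16.6% held ACGTG, 5.42% held GTGGGAA and 1.47% held a CArG box. The windows were 53.6%, 53.6%, 49.2% and 68.8% G and C, and a match is a description of the letters only.

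The label held for most of the 188 barcodes and not for all. Sorting them by genes that the rule did not use, with limits set after the data were seen, gave 4 kinds. Of the 188, 15 carried at least 20 UMIs of the epithelial genes Krt8, Krt18, Krt19 and Epcam (216 to 876 each, against at most 8 in any other pericyte barcode), and 13 of these 15 reached the rule on 6 or more UMIs of Notch3, with no Rgs5 and no Higd1b in 12 and no Higd1b in any. A further 19 carried 11 to 183 UMIs of 8 progenitor genes such as Dcn, Lum and Pdgfra, against at most 5 in the barcodes below the limit of 10. Another 38 carried 3 to 33 UMIs of 9 endothelial genes such as Cldn5 and Flt1, and all 38 held Rgs5. The other 116 barcodes, 61.7% of the 188, had none of these 3 marks, and Rgs5 was present in 115 of them; they are called unmixed here. The name covers these 3 marks only, and single unmixed barcodes carried keratinocyte, leukocyte or adipocyte genes, which are named beside the results they touch.

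**Figure D1:**
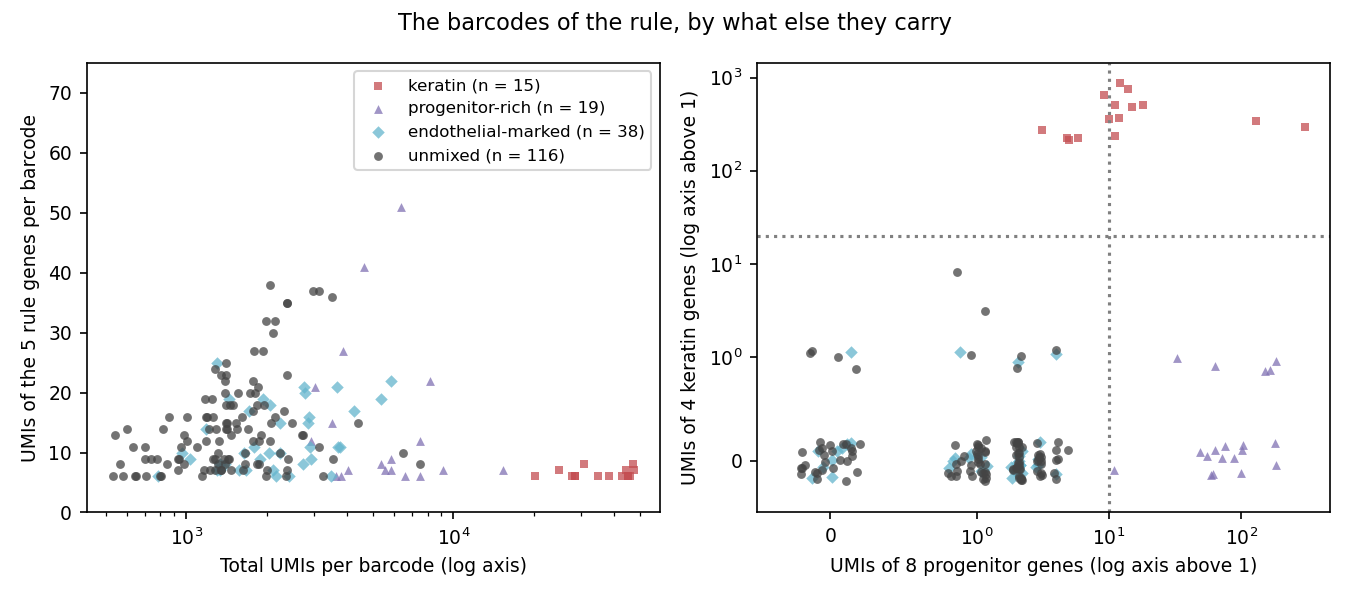
Each point is 1 of the 188 barcodes. Left, total UMIs per barcode (log axis) against the summed UMIs of the 5 rule genes. Right, UMIs of 8 progenitor genes against UMIs of 4 keratin and epithelial genes (both axes linear from 0 to 1, logarithmic above, points jittered); dotted lines are the limits of 10 and 20 UMIs. The 15 keratin barcodes stand apart at 20113 to 47194 total UMIs and near the lowest permitted rule sum.

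The keratin barcodes weighed on every sum because they were large. Their median depth was 38151 UMIs against 1425 in the unmixed barcodes, so that 15 barcodes held 58.1% of all UMIs of the 188, and the 116 unmixed barcodes held 20.5%. By library the keratin share of those UMIs was 58.0%, 40.0%, 78.4% and 0%. Over all kept barcodes, whatever their mural genes, 152, 86, 161 and 105 passed the same keratin limit. A doublet caller run on each library marked 4 of the 188 (2 progenitor-rich, 1 keratin and 1 endothelial-marked) and 0 of the unmixed. Levels are therefore given for the unmixed barcodes, and sums over all 188 only where stated.

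Further pericyte markers were read in the unmixed barcodes of every library, though fewest in the Cth-/- cystine-free one. Of 20 further pericyte markers that the rule did not use, 20, 19, 17 and 12 were detected, at a summed level of 9338, 10538, 8741 and 6941 CPM (counts per 1000000 UMIs of those barcodes). The genes at 0 in the last library, which had 5 unmixed barcodes and 6483 UMIs in all, included Cspg4, Des and Foxs1. Smooth muscle markers summed to 2771, 2645, 774 and 4165 CPM, with Cnn1, Actg2 and Pln at 0 in all 4 libraries. Progenitor markers summed to 2519, 2677, 3645 and 1080 CPM, and leukocyte markers to 205, 452, 806 and 154 CPM, with Ptprc at 0 by the rule. Adipocyte markers summed to 394, 140, 4548 and 154 CPM. Schwann cell markers, 677 CPM in the Cth+/+ control library, were at most 43.0 in the others.

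Rule sums ran from 6 to 25, 6 to 51, 6 to 22 and 7 to 17 over all pericyte barcodes of the 4 libraries, with medians of 10.5, 14, 9 and 9. At the edge of the rule, 29 barcodes had a sum of exactly 6 (13, 12, 4 and 0), and 34 that met the rest of the rule had a sum of 5 (13, 2, 11 and 8). A further 27 barcodes were left out by the Myh11 limit alone. The library of Cth-/- mice on the cystine-free diet thus had nearly as many barcodes just below the limit as its 9 above it.

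Pericyte barcodes made up a smaller share of the Cth-/- libraries. The rule found 74, 71, 34 and 9 barcodes, which is 1.15% (0.905 to 1.44), 1.11% (0.870 to 1.40), 0.585% (0.405 to 0.817) and 0.218% (0.0997 to 0.413) of the kept barcodes. The 2 Cth+/+ libraries overlapped, and both Cth-/- libraries lay below them outside the counting intervals. The unmixed barcodes fell in the same 2 levels, at 0.700% (0.511 to 0.936), 0.736% (0.542 to 0.978), 0.327% (0.197 to 0.510) and 0.121% (0.0393 to 0.282). Their depth differed, with a median of 1475.5, 2054, 2019 and 1629 UMIs over all pericyte barcodes. When every barcode was thinned to 1000 UMIs, with a rule sum of at least 3 and none of the excluded genes, the shares became 1.17% (68 of 5820), 1.48% (90 of 6069), 0.632% (34 of 5381) and 0.582% (22 of 3783), leaving out 605, 314, 431 and 347 shallower barcodes. The 2 Cth-/- libraries then lay together, below the Cth+/+ libraries. The thinned rule has a lower sum and other limits on the excluded genes as well as equal depth, and the part of each in this change was not tested. With a rule sum of at least 4 UMIs the shares were 1.60%, 1.44%, 1.12% and 0.678%, and the interval of the Cth-/- control library (0.864 to 1.42) overlapped those of the Cth+/+ control (1.31 to 1.94) and cystine-free (1.16 to 1.76) libraries. Keratin barcodes numbered 11, 6, 14 and 7 at that limit, against 5, 4, 6 and 0 under the rule. With a mitochondrial limit of 5% the shares were 0.543% (0.352 to 0.801), 0.7045% (0.494 to 0.974), 0.366% (0.213 to 0.585) and 0.187% (0.0754 to 0.386), and the Cth-/- control library again overlapped both Cth+/+ libraries.

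**Figure D2:**
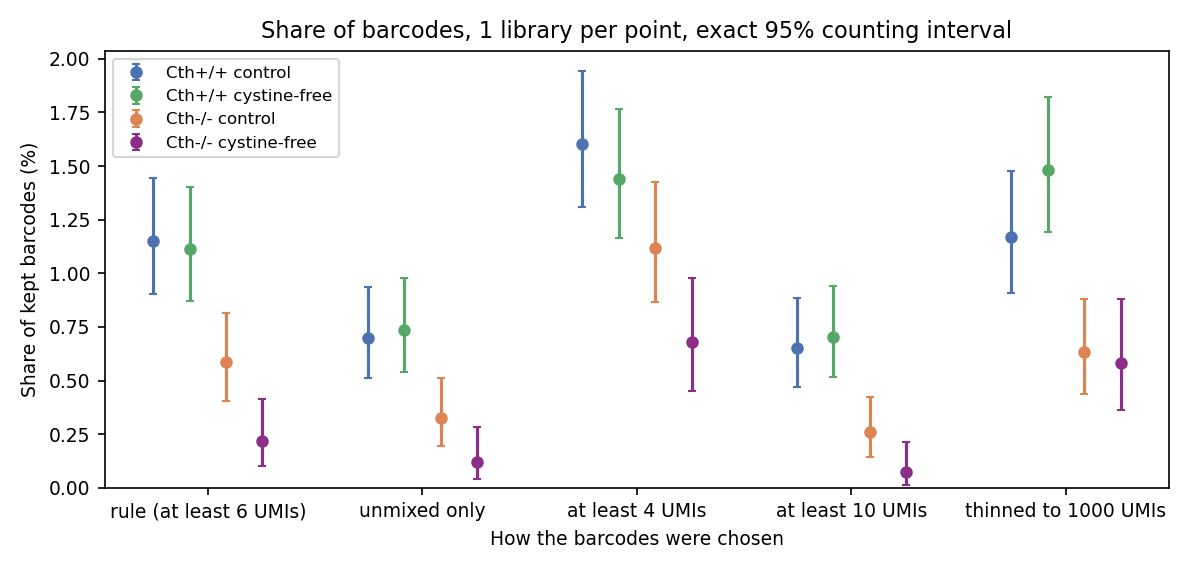
Share of kept barcodes in each library (percent) for the rule, the unmixed barcodes, rule sums of at least 4 and at least 10 UMIs, and thinned barcodes; bars are exact 95% counting intervals. The Cth-/- libraries lie below the Cth+/+ libraries in each choice except that, at a sum of at least 4, the interval of the Cth-/- control library reaches those of the Cth+/+ libraries.

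Set against the endothelium they cover, the order of the libraries changed. Endothelial barcodes (at least 3 UMIs of Cdh5 and Pecam1, at most 1 of the rule genes and no Ptprc) were 8.95%, 9.07%, 4.09% and 14.6% of the kept barcodes. There were 7.83 (5.64 to 10.6), 8.12 (5.90 to 10.9), 7.98 (4.72 to 12.7) and 0.831 (0.269 to 1.95) unmixed pericyte barcodes for each 100 endothelial ones. The first 3 libraries were alike on this scale and the Cth-/- cystine-free library stood apart, with the most endothelial barcodes and the fewest pericytes. The mitochondrial limit also fell unevenly, since 33, 10, 8 and 1 barcodes met the rest of the rule but had over 10% mitochondrial UMIs. With that limit lifted for the pericyte barcodes alone, the unmixed barcodes were 11.8, 9.33, 10.1 and 0.831 for each 100 endothelial ones. The endothelial barcodes still met the limit of 10%, so these values are raised against the ones before.

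Among the channel genes, Abcc9 was steady and Kcnj8 was not. In the unmixed barcodes Abcc9 stood at 1087, 1032, 1226 and 1388 CPM, with overlapping intervals, from 69, 96, 38 and 9 UMIs. Kcnj8 stood at 236 (132 to 390), 1226 (1011 to 1473), 1161 (813 to 1608) and 771 (250 to 1800) CPM. The Cth+/+ control library had 15 UMIs in 13 of 45 barcodes, at most 2 in any, while the Cth+/+ cystine-free library had 114 UMIs in 37 of 47 barcodes, at most 14. Kcnj8 was thus low in 1 of the 4 libraries while its partner, the next coding gene on the chromosome, was not. In endothelial, progenitor and leukocyte barcodes Kcnj8 was at most 5.76 CPM in any library. Those barcodes were allowed at most 1 UMI of the rule genes together, so this low level was set by their definition. It is no measure of how specific Kcnj8 is to pericytes. The pancreatic pair of the same channel family, Kcnj11 and Abcc8, gave 0 UMIs in every unmixed barcode, which allows at most 58.1, 39.7, 119 and 569 CPM. Kcnj8 and Abcc9 were rule genes, so their levels are described and no test was made on them.

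**Figure D3:**
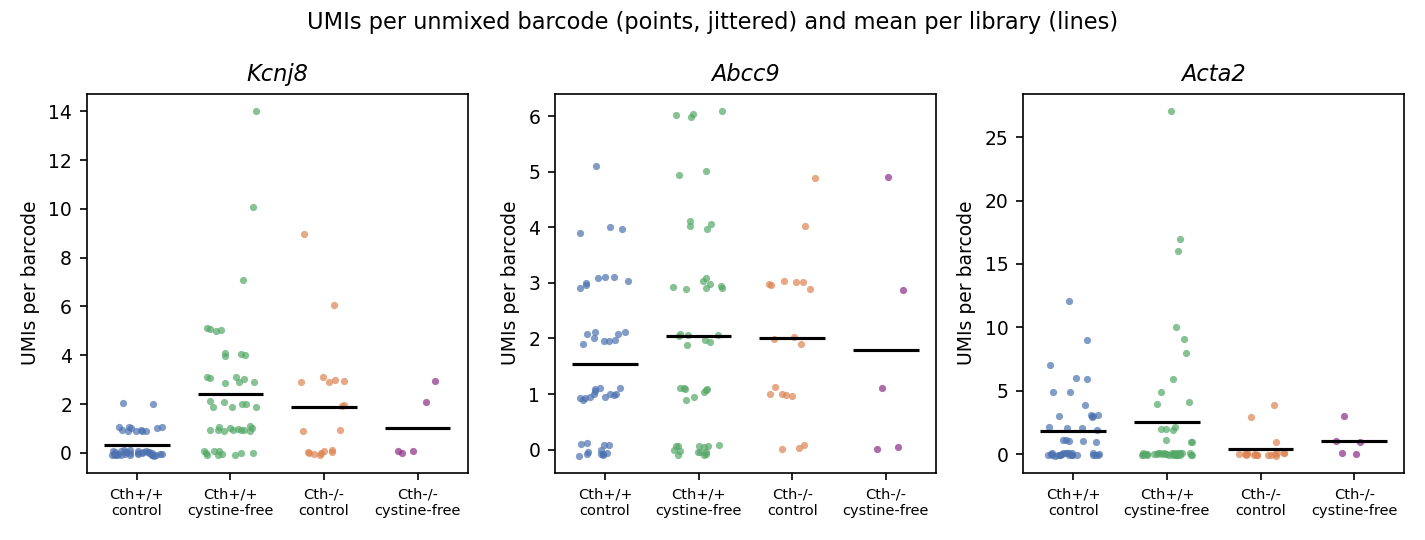
UMIs of Kcnj8, Abcc9 and Acta2 in each unmixed barcode (points, jittered) by library, with the mean per barcode as a line; the 3 vertical axes differ. Kcnj8 reaches at most 2 UMIs in the Cth+/+ control library, Abcc9 is spread alike in the libraries, and Acta2 is carried by a minority of barcodes in the 2 Cth+/+ libraries.

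Rgs5, a regulator of G-protein signals, was the most abundant of the 5 rule genes. It stood at 5543 (4979 to 6153), 5172 (4720 to 5656), 3645 (3004 to 4382) and 4473 (2996 to 6424) CPM in the unmixed barcodes, against at most 54.5 CPM in endothelial barcodes. The endothelial barcodes were defined by a near absence of the rule genes, so the low Rgs5 level there follows from that definition. Its neighbour Rgs4, which the rule did not use, stood at 331, 269, 645 and 308 CPM from 21, 25, 20 and 2 UMIs. In endothelial, progenitor and leukocyte barcodes Rgs4 was at most 3.03 CPM, and its lowest level in the unmixed barcodes was 88.7 times that value. Those other barcodes had at most 1 UMI of the rule genes together, which can lower genes that go with the rule genes. In 23 smooth muscle barcodes (at least 3 UMIs of Myh11), Rgs4 varied from 0 to 1803 CPM.

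Receptors of the vessel wall were present throughout. Pdgfrb, the receptor by which endothelium recruits pericytes, stood at 724 (530 to 966), 1215 (1001 to 1461), 1516 (1114 to 2016) and 617 (168 to 1580) CPM, against 138 to 210 CPM in progenitor barcodes. The Cth+/+ control library was the lower of the 3 well-filled ones. Notch3, a rule gene and the receptor for endothelial Jagged1, stood at 1307, 946, 839 and 463 CPM. Agtr1a, the angiotensin II receptor through which vessels constrict, stood at 268, 269, 452 and 463 CPM, and at most 121 in the smooth muscle barcodes of any library. The nitric oxide receptor, guanylate cyclase, was read as both of its subunits, with Gucy1a1 at 441, 409, 290 and 617 CPM and Gucy1b1 at 268, 344, 323 and 771 CPM. Levels of these receptors in the Cth-/- cystine-free library rest on 3 to 5 UMIs each.

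Pericytes carried mural forms of mitochondrial proteins. UMIs taken from the 3-prime ends count molecules, so paralogs can be set side by side without correction for length. Of the UMIs of Ndufa4l2 and its ubiquitous paralog Ndufa4, a subunit of cytochrome c oxidase, Ndufa4l2 took 91.6% (83.4 to 96.5), 97.1% (93.4 to 99.1), 66.7% (47.2 to 82.7) and 80.0% (28.4 to 99.5) in the unmixed barcodes. In endothelial barcodes it took 1.04%, 0.944%, 2.76% and 0.337%, and in progenitor barcodes 5.87%, 14%, 5.91% and 1.08%. The share in the Cth-/- control library lay below both Cth+/+ libraries, on 20 UMIs of Ndufa4l2 and 10 of Ndufa4. Cox4i2, the hypoxia-tuned form of cytochrome c oxidase subunit 4, took 50.7%, 45.8%, 37.9% and 42.9% of the UMIs of the pair Cox4i2 and Cox4i1, with overlapping intervals, against at most 0.90% in endothelial barcodes. The rule gene Higd1b took 85.4%, 84.2%, 85.0% and 75% of its pair with Higd1a. Higd1b helped to choose these barcodes, so its share in them is not independent of the rule. In the smooth muscle barcodes, the other mural cells, Ndufa4l2 took 29.6%, 74.1%, 100% and 71.4% of its pair and Higd1b 76.9%, 92.9%, 66.7% and 50%. These rest on 8, 20, 7 and 5 UMIs of Ndufa4l2 and 10, 13, 2 and 1 of Higd1b. The Ndufa4l2 share was above that of endothelial barcodes in every library. In both Cth+/+ libraries it lay below that of the unmixed barcodes, outside the counting intervals. In the smooth muscle barcodes Cox4i2 took 6.25%, 37.5%, 20% and 0%, from 2, 18, 2 and 0 UMIs.

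Other genes that the rule did not use were higher in pericytes than in endothelial, progenitor and leukocyte barcodes. They were named for the largest ratios of lowest pericyte to highest other level, so these ratios describe a choice. The endothelial, progenitor and leukocyte barcodes had at most 1 UMI of the rule genes together, which can lower genes that go with the rule genes. Mnd1, known as a recombination factor of meiosis, stood at 709 (517 to 948), 1344 (1119 to 1601), 742 (470 to 1113) and 925 (340 to 2014) CPM, and at most 6.36 CPM in endothelial, progenitor and leukocyte barcodes. Its lowest pericyte level was 111 times that highest level elsewhere, and smooth muscle barcodes had 77.0, 364, 192 and 0 CPM. Mnd1 was in 20 of 45, 35 of 47, 9 of 19 and 4 of 5 unmixed barcodes. Steap4, a metalloreductase of iron and copper uptake, stood at 1779, 1441, 1387 and 771 CPM and at most 444 CPM in smooth muscle. Vtn, the adhesive glycoprotein vitronectin, stood at 583, 688, 548 and 617 CPM, an even level against at most 25.9 CPM in the non-mural cells. Once smooth muscle was included, Vtn was not among the 20 genes with the largest ratio of lowest pericyte to highest other level. With smooth muscle included, the genes whose lowest pericyte level most exceeded the highest level elsewhere began, after the rule gene Abcc9, with Adgrl3, Chst1 and Agtr1a. Adgrl3 rested on 1 or 2 UMIs in 3 of the libraries, and in the Cth-/- cystine-free library Chst1 rested on 1 and Agtr1a on 3. The smooth muscle levels came from 23 barcodes over all libraries, so these ratios are loosely set.

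**Figure D4:**
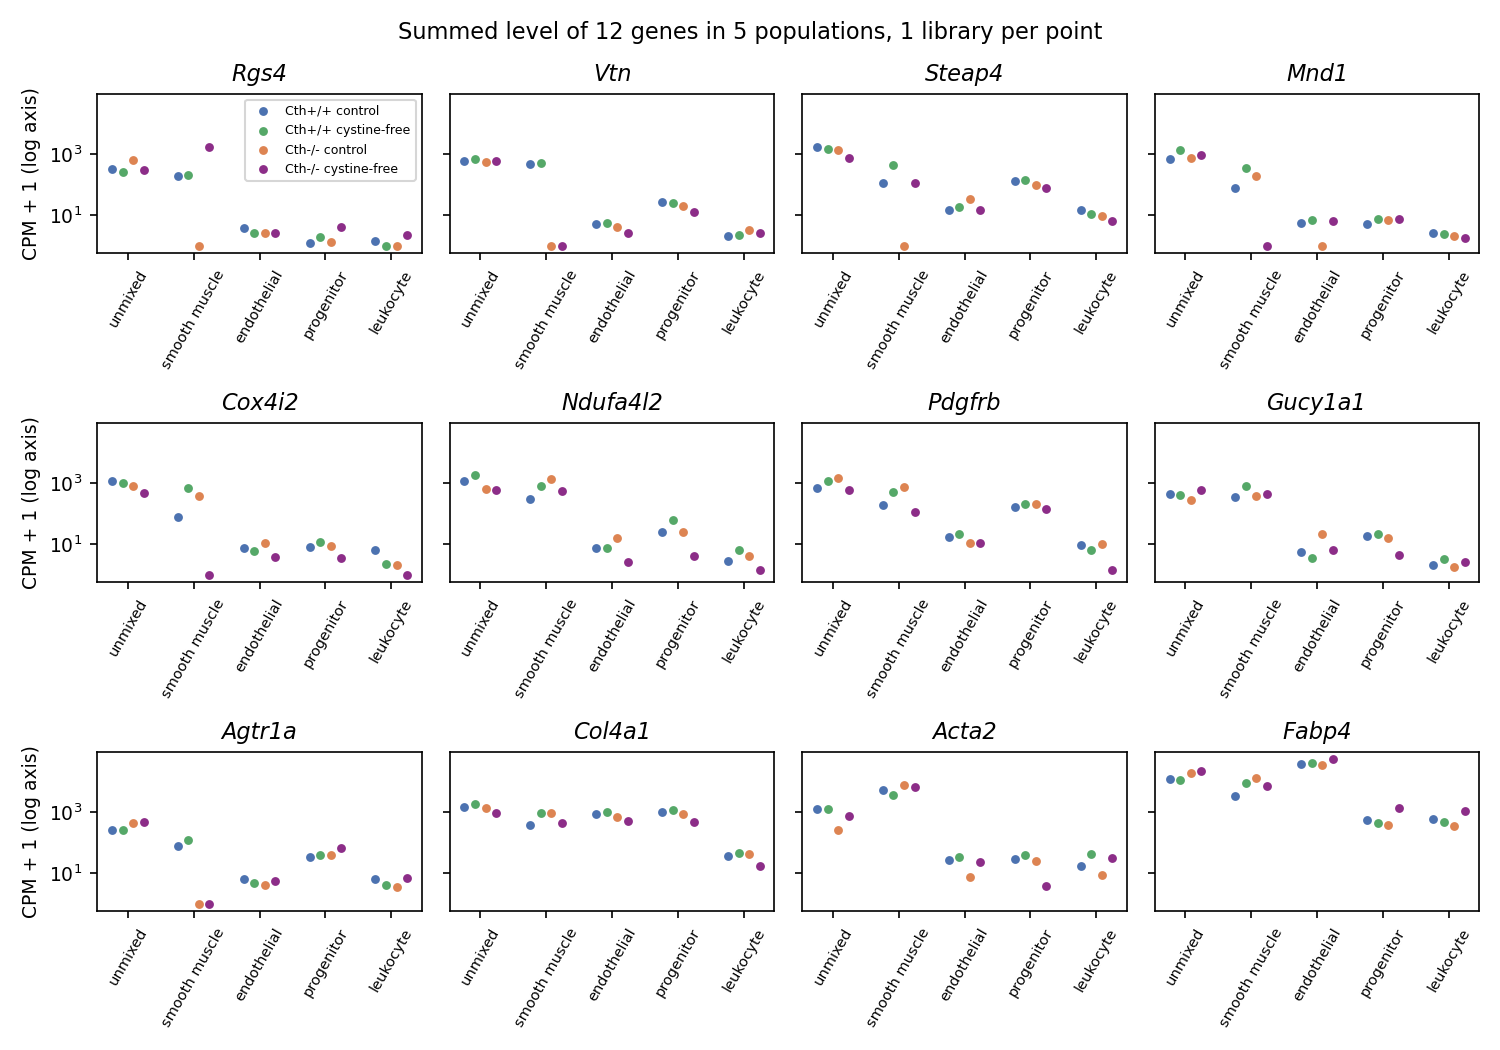
Summed level of 12 genes in the unmixed pericyte barcodes and 4 other populations (CPM + 1, log axis), 1 point per library. Mnd1 and Rgs4 are at 269 CPM or more in unmixed barcodes and below 10 in endothelial, progenitor and leukocyte barcodes; Fabp4 is highest in endothelial barcodes, and Col4a1 is shared with endothelial and progenitor barcodes.

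The basement membrane that pericytes and endothelium share was read from both sides. Col4a1, a chain of type IV collagen, stood at 1543, 1839, 1419 and 925 CPM in the unmixed barcodes, against 516 to 1056 CPM in endothelial barcodes. Its partner chain Col4a2 stood at 677, 892, 677 and 0 CPM, where the 0 allows up to 569 CPM.

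Fabp4, the fatty acid carrier of capillary endothelium and adipocytes, was abundant in the unmixed barcodes. It stood at 12408, 11366, 19707 and 22366 CPM and was in 43 of 45 and in all 47, 19 and 5 unmixed barcodes. Leukocytes had 591, 463, 361 and 1137 CPM, and endothelial barcodes had 35206 to 57432 CPM. At 1000 UMIs per barcode, Fabp4 was detected in 96.6%, 97.6%, 100% and 100% of unmixed barcodes against 31.8%, 35.9%, 23.1% and 62.8% of leukocytes. Cd36, the fatty acid translocase, stood at 693, 699, 1161 and 1234 CPM against 3726 to 6596 CPM in endothelium. The endothelial junction gene Cldn5 was at 47.2, 32.3, 96.8 and 154 CPM in the unmixed barcodes, and Vwf was at 0 in all 4. Whether Fabp4 was made by the pericytes or came with attached endothelial fragments was not tested.

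The cystine-free diet was compared with the control diet within Cth+/+ mice, the pair with the most barcodes (47 and 45 unmixed). A gene is called higher or lower here at 1.5-fold or more, a limit of size and not a test, among genes whose higher library reached 50 CPM and 30 UMIs. On this limit 17.9% of 442 genes were higher and 8.37% lower on the cystine-free diet. Kcnj8 was among the most raised of these, at a log2 ratio (pseudocount 1 CPM) of 2.37 (1.59 to 3.26), and 2.22 without its richest barcode. It lay between 2.00 and 2.80 over the 14 ways of choosing and scaling the barcodes, all of which used Kcnj8 in the rule sum. The ratio and its range are therefore not independent of the rule. Hrct1, a small membrane protein gene, had 4 UMIs in the control library and 38 in the cystine-free library, or 63.0 and 409 CPM. Its log2 ratio was 2.68 (1.22 to 4.65), and endothelial barcodes held 101 and 137 CPM of it. Rasgrp2, an exchange factor for the GTPase Rap1, stood at 173 and 495 CPM and Vasp, which extends actin filaments, at 126 and 398 CPM.

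Of the pericyte markers that the rule did not use, none was lower by 1.5-fold on the cystine-free diet. Of 20 such markers, 15 were measured (20 CPM and 15 UMIs or more in one of the libraries), 5 were higher and 0 lower, with a median log2 ratio of 0.24 against 0.20 over the 943 genes measured by the same limits, of which 22.8% were higher and 12.2% lower. The 5 were Foxs1, Cspg4, Anpep, Pdgfrb and Ndufa4l2. Pdgfrb had a log2 ratio of 0.75 (0.24 to 1.27), and Cspg4, the NG2 proteoglycan, of 1.64 (0.22 to 3.40) from 5 and 23 UMIs. Ndufa4l2, at 1197 and 1817 CPM, had a log2 ratio of 0.60 (0.20 to 1.01), and 0.54 without its richest barcode.

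Contractile genes lay within 1.5-fold of each other in the 2 Cth+/+ libraries, with 1 exception. Acta2, smooth muscle actin, stood at 1291 (1027 to 1603) and 1258 (1040 to 1508) CPM, in 22 of 45 and 17 of 47 barcodes. Of 24 contractile genes 14 were measured, 1 of them higher (Vim) and 0 lower, with a median log2 ratio of -0.01. Nuclear genes of the respiratory chain followed the background as well, with 5 higher and 1 lower of 32 measured and a median of 0.21. Immediate early genes, the first transcription factors to answer a stimulus, gave 4 higher and 1 lower of 17, with a median of 0.31.

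Inflammatory cytokines were lower in the Cth+/+ cystine-free library, and single barcodes carried much of that. Of 22 cytokine and chemokine genes 8 were measured, 0 higher and 5 lower (Ccl7, Cxcl10, Ccl2, Tnfaip6 and Il6), with a median of -0.90. Ccl7 stood at 1197 and 366 CPM, but 57 of the 76 UMIs in the control library lay in 1 barcode, and its log2 ratio of -1.71 became 0.23 without that barcode. Ccl2 went from -1.26 to -0.64 in the same way and Il6, read in 11 and 8 barcodes, from -0.84 to -0.58. The same list had medians of 0.07, -0.14 and 0.00 in endothelial, progenitor and leukocyte barcodes, and of 1.60 in smooth muscle (5 higher and 1 lower of 7, from 7 and 10 barcodes). Of the 301 genes measured in smooth muscle, 24.3% were higher and 23.3% lower. Over all 188 barcodes the cytokine median was 0.33. Lgals7 and Krt10, skin keratinocyte genes among the 4 lowest ratios of that comparison, had 50 of 50 and 49 of 50 of their control-library UMIs in 1 barcode.

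Loss of Cth on the control diet was compared between 19 and 45 unmixed barcodes, and it shares the Cth+/+ control library with the diet comparison. Of 270 genes, 12.2% were higher and 27.4% lower in Cth-/- by 1.5-fold, and the median log2 ratio of these genes was -0.29. Contractile genes lay below that background. Acta2 stood at 1291 (1027 to 1603) CPM in Cth+/+ and 258 (111 to 508) CPM in Cth-/-, in 22 of 45 and 3 of 19 barcodes. Its log2 ratio was -2.32 (-3.58 to -1.28), and -2.15 without its richest barcode. Tpm2, a tropomyosin of smooth muscle, went from 772 to 129 CPM (log2 ratio -2.57, -4.51 to -1.13). Tagln, the actin-binding protein transgelin, went from 677 to 194 CPM (-1.80, -3.33 to -0.57), and Myl9, the regulatory light chain of myosin, from 1338 to 548 CPM (-1.29, -2.13 to -0.52). Of 14 contractile genes measured, 0 were higher and 11 lower, with a median of -1.15 against -0.29 over the 558 genes measured by the same limits, of which 13.4% were higher and 31.5% lower.

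The contractile list kept its sign over the 14 ways of choosing and scaling the barcodes, with medians from -1.43 to -0.16. The same list had medians of -0.19, -0.12 and 0.04 in endothelial, progenitor and leukocyte barcodes, and of 0.47 in smooth muscle (4 higher and 1 lower of 10, from 2 and 10 barcodes). Of the 178 genes measured in smooth muscle, 6.18% were higher and 59.0% lower. In the unmixed barcodes, smooth muscle markers summed to 2771 CPM in Cth+/+ and 774 CPM in Cth-/-. That list shares genes such as Acta2 and Tagln with the contractile list, so its sum is not a separate observation. In barcodes that met the smooth muscle definition Acta2 stood at 5464 and 7666 CPM, from 10 and 2 barcodes. The part of barcodes between pericyte and smooth muscle in this result was not tested. In the Cth-/- cystine-free library Acta2 stood at 771 (250 to 1800) CPM and Tagln at 2005 CPM, with all 13 Tagln UMIs in 2 of 5 barcodes. Tpm2 stood at 154 CPM there, on 1 UMI.

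Immediate early genes lay above the background in the same comparison. Fos stood at 3464 (3022 to 3954) CPM in Cth+/+ and 8741 (7731 to 9846) CPM in Cth-/-, in 33 of 45 and 18 of 19 barcodes, and Jun at 1087 and 3193 CPM. Of 15 genes measured, 13 were higher and 0 lower, with a median of 1.20. In endothelial barcodes 7 of 22 were higher, against 7.41% of the 6022 genes measured there, and 0 lower, with a median of 0.48. The median was 0.40 in leukocytes, 0.07 in progenitors and -3.34 in smooth muscle (0 higher and 6 lower of 7, from 2 and 10 barcodes). In smooth muscle 6.18% of the 178 genes measured were higher and 59.0% lower. The part of the endothelial and leukocyte shift in the pericyte values was not tested. Over all 188 barcodes the median turned to -0.27, where keratin barcodes supplied 78.4% of the Cth-/- UMIs.

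**Figure D5:**
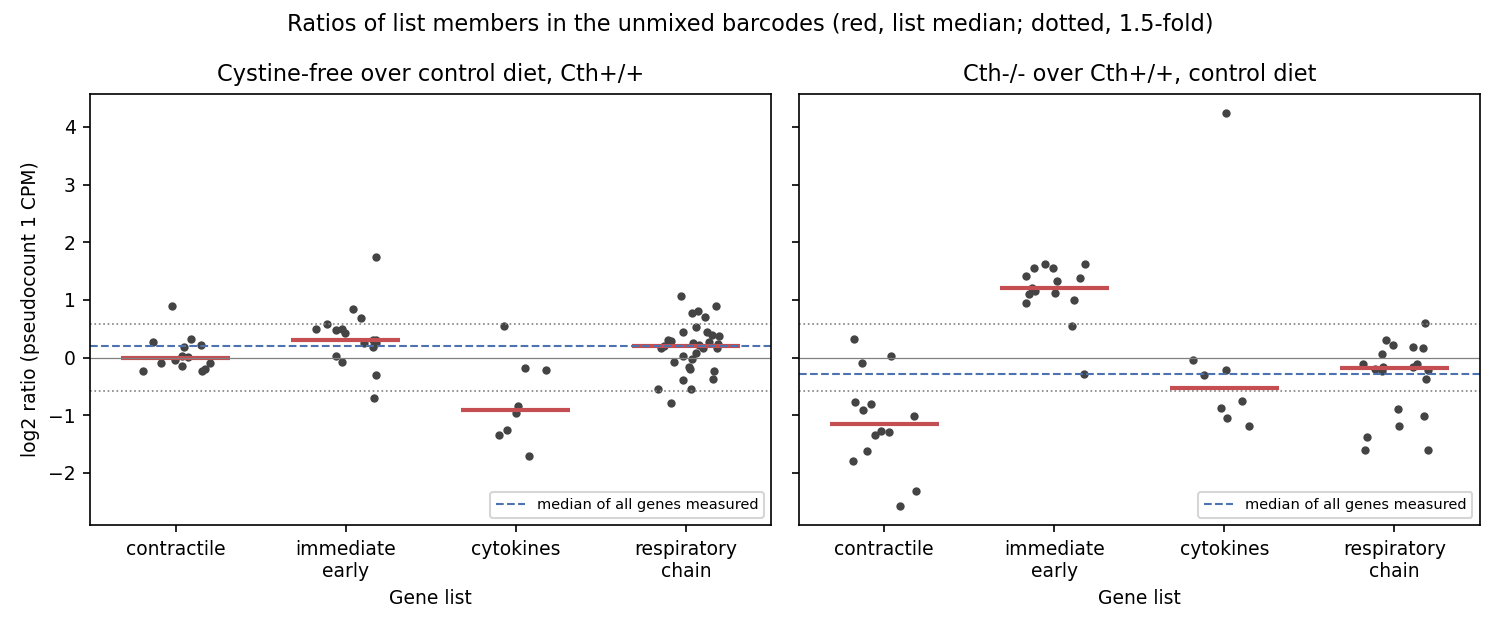
Log2 ratios (pseudocount 1 CPM) of the measured members of 4 gene lists in the unmixed barcodes, for the diet within Cth+/+ (left) and Cth loss on the control diet (right); red bars are list medians, the dashed line is the median of all genes measured and dotted lines mark 1.5-fold. On the right, 11 of 14 contractile genes lie below the lower dotted line and 13 of 15 immediate early genes above the upper one.

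Other genes followed in both directions. Kcnj8, a rule gene that helped to choose these barcodes, was higher in Cth-/- than in Cth+/+ on the control diet. Its log2 ratio was 2.29 (1.39 to 3.27) and fell to 0.83 over all barcodes of the rule. Rgs16, a regulator of G-protein signals that is induced by activation, went from 740 to 161 CPM, and the transcriptional inhibitor Id3 from 1669 to 645 CPM (log2 ratio -1.37, -2.14 to -0.67). Cfd, the adipocyte protease adipsin, went from 63.0 to 2097 CPM, where 28 of 65 UMIs lay in 1 barcode and the 65 in 6 barcodes. Over all barcodes of the rule its log2 ratio was 2.08, and with the 5% mitochondrial limit it turned to -1.22 (-2.55 to -0.05). Retnla, at 8300 CPM in the leukocytes of the Cth+/+ control library, had 106 of its 115 Cth-/- UMIs in 1 pericyte barcode. Without that barcode its log2 ratio went from 4.41 to 0.92. Adipocyte markers were at 394 and 4548 CPM in these barcodes, and their part in the Cfd value was not tested.

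The Cth-/- cystine-free library had 5 unmixed barcodes, and 30 UMIs, the least a gene needs to be assessed as higher there, came to 4630 CPM in it. Against the Cth-/- control library 5.17% of 116 genes were higher and 50% lower, and against the Cth+/+ cystine-free library 2.45% of 327 were higher and 64.2% lower, shares that carry this unequal limit. Of the 6 genes read as higher for the diet in Cth-/-, Cxcl1 and Il6 rested on 1 barcode. Cxcl1 stood at 1838 and 9409 CPM in the Cth-/- control and cystine-free libraries, and 51 of its 61 UMIs lay in 1 barcode. Its log2 ratio of 2.35 became 0.16 without that barcode, and that of Il6 went from 2.30 to 0.27. Mt1, a metallothionein that binds zinc and rises with stress, stood at 3451 and 24834 CPM (log2 ratio 2.85), in 17 of 19 and 4 of 5 barcodes. Its 161 UMIs lay in the 5 barcodes as 97, 56, 6, 2 and 0. Without the richest barcode its log2 ratio was 1.94, which still rested mainly on the barcode with 56. Over all barcodes with a rule sum of at least 4 UMIs its log2 ratio was -0.0059. The latter choice took in 14 and 7 keratin barcodes in the Cth-/- control and cystine-free libraries. The other 3 were Mt2, whose richest barcode held 31 of 43 UMIs, Junb (18 of 59) and Eif1 (12 of 32). Progenitor barcodes had 7142 and 11107 CPM of Mt1 in the same libraries. Fos went the other way, at 8741 and 1697 CPM, in 18 of 19 and 4 of 5 barcodes. Rhob, an early-response GTPase, had 74 and 1 UMIs.

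Summed over all 188 barcodes, the largest ratios described the keratin barcodes. Of the genes assessed in this way, 14.3% of 1619 were higher and 13.7% lower for the diet in Cth+/+, and 3.57% of 952 and 74.4% for the diet in Cth-/-. For Cth loss these were 12.4% of 1674 and 13.9% on the control diet, and 3.39% of 826 and 65.9% on the cystine-free diet. With the 15 keratin barcodes left out, 12.8% of 853 were higher and 8.79% lower for the diet in Cth+/+, and 8.37% of 251 and 41.8% for the diet in Cth-/-. Cth loss then gave 12.3% of 609 and 23.8% on the control diet, and 5.04% of 556 and 59.0% on the cystine-free diet. Upk3a, a uroplakin, had 47 UMIs in the Cth+/+ cystine-free library and 0 in the control library, all in keratin barcodes. Pcp4 had 0 and 79, Aoc1 2 and 67, and both were at 0 in the unmixed barcodes of every library. Krt19 had 658, 290, 985 and 0 UMIs over the 188 barcodes and 3, 7, 0 and 0 in the unmixed barcodes. A comparison of pericytes between these libraries by summed counts is therefore weighted by keratin barcodes, which were absent from the fourth library.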

How the data were processed

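Cells of the subcutaneous stromal vascular fraction were sequenced with a droplet kit that reads the 3-prime ends of transcripts, per the labels' protocols. The deposited matrices hold UMI counts per gene and barcode, made by the authors with Cell Ranger 3.0.0 per the file headers, on mm10 per the submitters' processing notes. They hold 7175, 7312, 6353 and 4394 barcodes with 24395501, 30944977, 26278510 and 15948807 UMIs, 1 library per group.

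Counts were summed per library and population and scaled to 1000000 UMIs (CPM) with Python 3.11.15, numpy 2.4.6, scipy 1.17.1 and pandas 2.3.3. Intervals are 95% and cover counting error only, since each group is 1 library and no test between groups was possible. Ratios use a pseudocount of 1 CPM. The rule's members, the 33 gene lists and the comparisons were chosen with earlier results of these data known, and the 4 kinds of barcode were set after the data were seen. Genes named in a comparison are the 10 highest and 10 lowest of those at least 1.5-fold apart with pericyte CPM of at least 1 part in 5 of that in any other population, members of the lists, and the 20 genes with the largest ratio of lowest pericyte to highest other level (15 with smooth muscle left out); not all are printed. Genes of the mitochondrial genome, ribosomal proteins and unnamed models were not named. Scrublet (scanpy 1.11.5) marked 100, 99, 139 and 40 doublets, which were kept, and their removal was an alternative. Other populations were defined by UMIs of Cdh5, Pecam1, Pdgfra, Dcn, Ptprc and Myh11 and numbered 1994 endothelial, 7069 progenitor, 3404 leukocyte and 23 smooth muscle barcodes. Endothelial, progenitor and leukocyte barcodes also had at most 1 UMI of the rule genes together. Smooth muscle barcodes had at most 1 UMI of Krt5, Krt14 and Krt17 together. The scripts were tested on simulated data. Of the genes in the lists, 1 was unmatched in the annotation and 2 had duplicate symbols. Gene positions came from an mm10 annotation and upstream sequences from RefSeq. Alternatives changed the rule sum, the Myh11 and mitochondrial limits, the barcodes kept, the scaling, the pseudocount and the limits on low values.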

Additional observations from a re-analysis of the deposited data

Results flagged for a closer look

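The cytokine and chemokine list had medians of opposite sign for the diet in the unmixed barcodes of the 2 genotypes. Its median log2 ratio, cystine-free over control, was -0.90 in Cth+/+ (8 genes measured, 47 and 45 barcodes) and 2.30 in Cth-/- (5 genes measured, 5 and 19 barcodes). The difference between the genotypes was not tested, and the directions changed with the choice of barcodes. Over all barcodes of the rule the Cth+/+ median was 0.33 and the Cth-/- median 3.26, and with a rule sum of at least 4 UMIs the Cth-/- median was -0.71 and the Cth+/+ median 0.76. That lower limit took in 7 keratin barcodes in the Cth-/- cystine-free library, against 0 under the rule. Single barcodes decided several of these genes: without the richest barcode the ratio of Ccl7 in Cth+/+ went from -1.71 to 0.23, and in Cth-/- that of Cxcl1 from 2.35 to 0.16 and that of Il6 from 2.30 to 0.27.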

How the results depend on the processing

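Over the alternatives, those with other limits on low values included, 54 counts of genes moved by more than 1.5-fold and 66 did not. Ratios were judged by their counting interval and without those limits, so the tallies are not on one scale. For single genes, set against the ratio over all 188 barcodes, 476 alternative values stayed within its counting interval, 165 moved outside it and 6 turned the sign of a ratio of at least 1.5-fold. The unmixed barcodes, from which most ratios above are given, were 1 of the alternatives. For Cth loss on the control diet their ratio of Acta2 stayed and that of Fos moved. The tally therefore does not describe how stable the ratios of the unmixed barcodes are. For list medians, set against the typical counting error of the list's genes, these numbers were 99, 16 and 1, and medians nearer 0 changed sign more freely, such as the cytokine median for the diet in Cth+/+ (0.33, and -0.90 in the unmixed barcodes) and the immediate early median for Cth loss on the control diet (-0.27 and 1.20). No paired analysis was possible because each group is 1 library and the labels give no replicate numbers, and no replicate could be left out for the same reason. Depth limits the Cth-/- cystine-free library most, since 5 unmixed barcodes held 6483 UMIs there.

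With a rule sum of at least 4 UMIs the pericyte share was 1.60%, 1.44%, 1.12% and 0.678% in the 4 libraries. With at least 10 UMIs it was 0.654%, 0.705%, 0.258% and 0.0726%. A mitochondrial limit of 5% gave 0.543%, 0.7045% and 0.366% in the first 3, and a limit of 20% gave 1.53% in the first. The unmixed barcodes gave 0.700%, 0.736% and 0.327%, and thinning gave 1.48% in the second and 0.582% in the fourth.

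Over all 188 barcodes, 231 genes were higher and 221 lower by 1.5-fold for the diet in Cth+/+, 34 and 708 for the diet in Cth-/-, 208 and 233 for Cth loss on the control diet and 28 and 544 for Cth loss on the cystine-free diet. In the same order, the unmixed barcodes gave 79 and 37, 6 and 58, 33 and 74, and 8 and 210. Leaving out the keratin barcodes gave 109 and 75, 21 and 105, 75 and 145, and 328 lower in the last. A rule sum of at least 4 gave 402 and 400, 233 and 458, and 369 higher in the last, while at least 10 gave 97 and 45, 9 and 42, 29 and 106, and 13 and 236. Limits of 20 CPM and 15 UMIs gave 626 and 582, 84 and 1293, 509 and 610, and 72 and 1144, and limits of 100 CPM and 60 UMIs gave 96 and 81, 10 and 349, 77 and 76, and 9 and 272. Centring on the median gene gave 237 and 334 for the diet in Cth-/- and 218 and 236 for Cth loss on the cystine-free diet. The 5% mitochondrial limit gave 21 higher for the diet in Cth-/-, 106 lower for Cth loss on the control diet and 357 lower on the cystine-free diet. Leaving out barcodes with Pdgfra gave 354 lower for the diet in Cth-/- and 127 higher for Cth loss on the control diet, and averaging CPM over barcodes gave 22 higher for the diet in Cth-/-.

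Signs turned with a rule sum of at least 4 UMIs for Cxcl10 with the diet in Cth+/+ (0.61), the cytokine median (-0.71), Krt19 (0.55) and Mt1 (-0.0059) with the diet in Cth-/-, and Fabp4 (-0.15) and Cox5b (0.29) for Cth loss on the cystine-free diet. That limit took in 11, 6, 14 and 7 keratin barcodes in the 4 libraries, against 5, 4, 6 and 0 under the rule. The sign of Cfd for Cth loss on the control diet turned with the 5% mitochondrial limit (-1.22). The cause was not tested.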
